A study of Homo sapiens with 9 samples.

Results

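The genes described here are those of the integrated stress response and the unfolded protein response, as measured by RNA-seq in WiDr cells after knockdown of the long noncoding RNA LIMp27. They were taken from a list of gene symbols, with no cut on their values: 14 targets or effectors of the ATF4-CHOP axis, 4 stress sensors and their transcription factors, 17 endoplasmic reticulum (ER) chaperone and folding genes and 7 ER degradation genes, 42 in all. Of these, 41 were listed among the 25159 genes deposited, and all 41 had enough reads to be tested. STC2 was not analysed here. The genes were chosen with earlier results of these data known, a limit on every share of members set beside all tested genes below.

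WiDr cells derive from a colon adenocarcinoma and carry mutant p53, and LIMp27 is the name given to the transcript of LINC01356. All cells were grown in DMEM with 10% FBS and transfected with 100 nM siRNA for 24 h, so that the comparisons hold the transfection constant and there is no untransfected group. The groups were control siRNA, LIMp27 siRNA-1 and LIMp27 siRNA-2, with 3 libraries each. The comparison of each LIMp27 siRNA with control siRNA asks which transcripts change with the knockdown, and the direct comparison of LIMp27 siRNA-2 with LIMp27 siRNA-1 asks where the 2 siRNAs, meant for the same target, differ. Both comparisons with control use the same 3 control libraries and are therefore not independent of each other.

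Between 14361629 and 21524623 reads per library were assigned to genes. The target itself was too sparse to check the knockdown in these files: LINC01356 (ENSG00000215866) had 0, 0 and 2 reads in the control libraries, 0 in each siRNA-1 library, and 0, 2 and 1 reads in the siRNA-2 libraries. Of 12 colon epithelial markers 11 were listed, with a summed level of 15590 to 16430 normalized CPM (reads scaled to library size) in control, 11200 to 11680 CPM with siRNA-1 and 9711 to 10790 CPM with siRNA-2. This sum was carried by the keratins KRT8 and KRT18, while CDX1, which had no row, was counted as 0. The sum thus moved with the knockdown, and its part in the differences below was not tested. Fibroblast markers summed to at most 1.46 CPM and endothelial markers to at most 0.254 CPM in any library. The 5 leukocyte markers summed to 1906 to 1974 CPM in control, 1857 to 1955 CPM with siRNA-1 and 1248 to 1343 CPM with siRNA-2, nearly all of it lysozyme (LYZ), with PTPRC at 0 in every control and siRNA-2 library and at a mean of 0.0453 CPM with siRNA-1. In bulk RNA a change in the number of cells and a change in RNA per cell cannot be told apart.

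In the integrated stress response, kinases that sense ER stress, amino acid shortage, double-stranded RNA or haem deficiency phosphorylate the initiation factor eIF2, which lowers general translation and favours translation of ATF4. ATF4 then drives genes of amino acid supply together with the transcription factor CHOP (encoded by DDIT3), TRIB3, CHAC1 and the phosphatase subunit PPP1R15A, which reverses the phosphorylation. The unfolded protein response reads misfolded protein in the ER lumen through the sensors PERK (EIF2AK3), IRE1 (ERN1) and ATF6: PERK feeds the ATF4 branch, IRE1 splices the XBP1 transcript, and spliced XBP1 and cleaved ATF6 raise ER chaperones and the machinery that returns misfolded proteins to the cytosol for degradation. The splicing of XBP1, the cleavage of ATF6 and the phosphorylation of eIF2 cannot be read from counts per gene, so only transcript levels are given here.

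The branches differ in the DNA elements of their promoters, which is shown with a few members before their levels. RefSeq promoters (GRCh38.p14, 250 bases before to 50 after each start) were at hand for 38 members, but not for DERL1, NUPR1, PDIA3 and VEGFA. On either strand, the ATF4 and C/EBP composite element (CARE, TGATGNAA) was present in 4 of 12 ATF4-CHOP genes (ASNS, CEBPG, CHAC1 and PPP1R15B), in none of 16 ER folding genes, in 1 of 6 ER degradation genes (HERPUD1) and in 4.46% of all genes with a promoter. The ER stress element (ERSE, CCAAT and CCACG with 9 bases between them) was present in 7 of 16 ER folding genes (CALR, CANX, CRELD2, ERO1B, HSP90B1, HSPA5 and PDIA6), in XBP1, in none of the ATF4-CHOP or ER degradation genes, and in 0.0916% of all genes with a promoter (25 of 27305). The XBP1 element (UPRE, TGACGTGG) was present in HYOU1 among the members and in 0.927% of all genes. The UPRE holds CGTGG, which is the CCACG of the ERSE read on the other strand. A match is a description of the letters and not evidence of binding. The lines below show the element in capitals with 5 bases on each side, read along the gene's strand, so that an element on the other strand appears reversed (TTGCATCA for CARE; CGTGG before ATTGG for ERSE).
CEBPG, chr19:33374066-33374083, plus strand, CARE: gcgtcTGATGCAAcctgc
PPP1R15B, chr1:204412032-204412049, minus strand, CARE: ccggcTGATGCAAcctca
HERPUD1, chr16:56931961-56931978, plus strand, CARE reversed: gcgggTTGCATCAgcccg
HSPA5, chr9:125241386-125241414, minus strand, ERSE: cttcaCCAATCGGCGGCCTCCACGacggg
XBP1, chr22:28800598-28800626, minus strand, ERSE: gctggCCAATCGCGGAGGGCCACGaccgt
PDIA6, chr2:10812848-10812876, minus strand, ERSE: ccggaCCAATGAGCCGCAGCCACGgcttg
CRELD2, chr22:49918549-49918577, plus strand, ERSE reversed: cctctCGTGGCGAACTCGGATTGGgccat
CALR, chr19:12938379-12938407, plus strand, ERSE reversed: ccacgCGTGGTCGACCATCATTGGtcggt
HYOU1, chr11:119057381-119057398, minus strand, UPRE: ccccgTGACGTGGtccaa

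All 41 listed members had reads in every group, over a wide range of levels. Per length, in the FPKM values the authors deposited for the control libraries, the 9 highest members were ER folding genes, led by the ER HSP90 paralogue HSP90B1 at 1186 ± 72.2 FPKM (SD, n = 3). The lectin chaperone CANX (980 ± 12.1 FPKM) and the disulfide isomerase P4HB (974 ± 28.0 FPKM) were within their spread of each other, as were PDIA4 (297 ± 7.04 FPKM), PDIA6 (290 ± 6.92 FPKM) and HYOU1 (288 ± 9.51 FPKM). ATF4 stood at 268 ± 6.91 FPKM and XBP1 at 196 ± 1.40 FPKM, above every other member of the ATF4-CHOP axis and every other sensor gene. The sensor genes ATF6, ERN1 and EIF2AK3 were much lower, at 15.0 ± 0.663, 12.9 ± 0.877 and 12.1 ± 0.701 FPKM, of which the last 2 did not differ beyond their spread. ASNS, which encodes asparagine synthetase and is a classical ATF4 target, was low in these cells, at 2.61 ± 0.142 FPKM. The lowest members were the oxidase ERO1B at 0.685 ± 0.109 FPKM and NUPR1 at 0.222 ± 0.0780 FPKM.

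**Figure D1:**
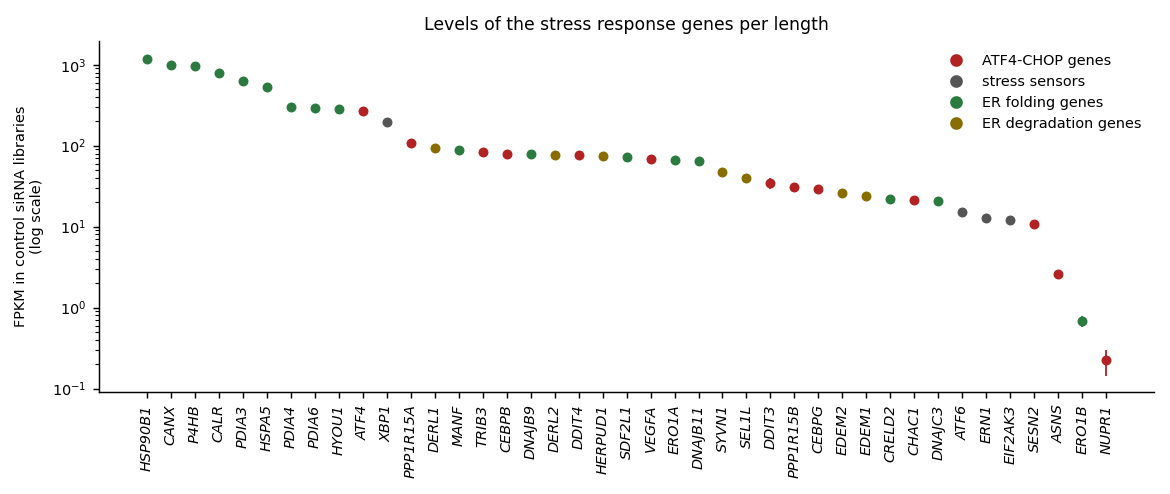
Level of each of the 41 listed members in the control siRNA libraries (FPKM, log scale, mean ± SD, n = 3), in falling order and coloured by group. ER folding genes hold the first 9 places, from HSP90B1 at 1186 FPKM, and NUPR1 is last at 0.222 FPKM.

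With siRNA-1 most members were lower than in control, whereas with siRNA-2 they moved both ways. By edgeR's quasi-likelihood test at an adjusted p under 0.05, siRNA-1 left 7 of 41 members higher and 23 lower, against a background of 26.5% of all 14347 tested genes called higher and 28.3% called lower. With siRNA-2, 15 of 41 members were higher and 14 lower, against 27.7% of all 14204 tested genes called higher and 29.0% called lower. In the direct comparison 21 members were higher with siRNA-2 than with siRNA-1 and 6 were lower, against 23.1% and 22.4% of 14415 tested genes. The median log2 fold change over the members was -0.175 with siRNA-1 and 0.036 with siRNA-2, and 0.23 between the siRNAs, where the median over all tested genes was 0.00094, 0.012 and 0.012. Among 12 alternative settings per comparison, 5 of the 7 higher and 16 of the 23 lower calls with siRNA-1 were made in every one, as were 13 of 15 and 11 of 14 with siRNA-2 and 19 of 21 and 4 of 6 in the direct comparison.

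**Figure D2:**
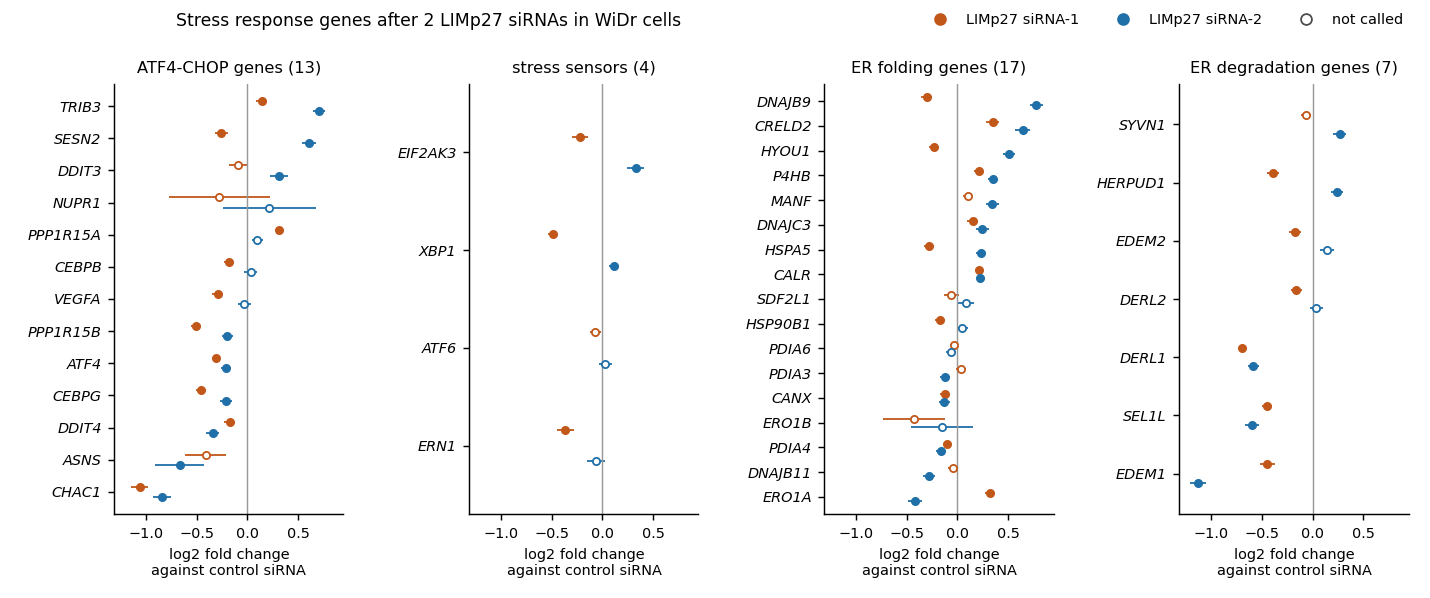
Log2 fold change of each member against control siRNA with LIMp27 siRNA-1 (orange) and siRNA-2 (blue), with bars of 1 standard error from the edgeR fit on 3 libraries a group; open symbols did not reach an adjusted p under 0.05. CHAC1, DERL1, SEL1L and EDEM1 lie left of 0 with both siRNAs, while DNAJB9, HYOU1, HSPA5, SESN2, EIF2AK3 and HERPUD1 lie left with siRNA-1 and right with siRNA-2.

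Among the ATF4-CHOP genes, siRNA-1 left 2 of 13 higher and 8 lower, and siRNA-2 left 3 higher and 6 lower. Their median log2 fold change was -0.28 with siRNA-1 and -0.032 with siRNA-2. Of all tested genes, 26.5% were higher and 28.3% lower with siRNA-1, and 27.7% and 29.0% with siRNA-2. The axis did not move as a block with siRNA-2, where TRIB3 and SESN2 were higher and CHAC1 and ATF4 lower. With siRNA-1 CHAC1, ATF4 and SESN2 were all lower. The 2 genes called higher with siRNA-1 were PPP1R15A and TRIB3, and the TRIB3 call was lost in 3 alternatives.

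The transcript of ATF4 itself (ENSG00000128272) stood at 507, 483 and 512 normalized CPM in the control libraries, 411, 396 and 403 CPM with siRNA-1 and 434, 419 and 440 CPM with siRNA-2. All 6 knockdown libraries lay below all 3 control libraries. The log2 fold change was -0.31 ± 0.042 (SE, edgeR adjusted p = 3.49e-07) with siRNA-1 and -0.21 ± 0.049 (edgeR adjusted p = 0.000603) with siRNA-2. ATF4 is regulated mainly through its translation, which these data do not measure.

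DDIT3 (ENSG00000175197), which encodes CHOP, stood at 28.5, 31.1 and 38.6 CPM in control, 27.0, 30.6 and 33.6 CPM with siRNA-1 and 40.4, 36.9 and 43.7 CPM with siRNA-2. The third control library overlapped the siRNA-2 libraries, and the siRNA-1 and control libraries overlapped widely. The log2 fold change was 0.31 ± 0.090 with siRNA-2 (edgeR adjusted p = 0.0043) and -0.096 ± 0.089 with siRNA-1 (edgeR adjusted p = 0.377). The siRNA-2 call rested on control library 1, without which the edgeR adjusted p was 0.0735 at a log2 fold change of 0.21.

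CHAC1 (ENSG00000128965), a glutathione-degrading enzyme downstream of ATF4 and CHOP, had the largest fall of the axis. It stood at 29.6, 29.9 and 33.8 CPM in control, 14.2, 15.2 and 15.1 CPM with siRNA-1 and 15.4, 19.0 and 17.7 CPM with siRNA-2, on 240 to 601 reads a library. Control libraries stood apart from both knockdown groups without overlap. CHAC1 was 2.09-fold lower with siRNA-1 (log2 fold change -1.06 ± 0.081, edgeR adjusted p = 4.57e-12) and 1.79-fold lower with siRNA-2 (-0.84 ± 0.093, edgeR adjusted p = 7.52e-09).

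TRIB3 (ENSG00000101255), a pseudokinase induced by ATF4 and CHOP that dampens ATF4 activity, rose with siRNA-2. It stood at 129, 123 and 137 CPM in control, 136, 137 and 155 CPM with siRNA-1 and 201, 218 and 214 CPM with siRNA-2. The siRNA-2 libraries lay above all others, whereas the siRNA-1 libraries overlapped the control. TRIB3 was 1.63-fold higher with siRNA-2 (log2 fold change 0.71 ± 0.056, edgeR adjusted p = 8.97e-12). The call with siRNA-1 (0.14 ± 0.053, edgeR adjusted p = 0.0263) was lost without control library 1 or 2 or siRNA-1 library 3, with edgeR adjusted p between 0.0626 and 0.297 and values down to 0.073.

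SESN2 (ENSG00000130766), a sestrin that restrains mTORC1 under stress, was called in opposite directions. It stood at 40.8, 38.8 and 37.9 CPM in control, 29.8, 33.1 and 34.9 CPM with siRNA-1 and 54.7, 62.7 and 61.0 CPM with siRNA-2. The 3 groups did not overlap. The log2 fold change was -0.26 ± 0.068 with siRNA-1 (edgeR adjusted p = 0.00214) and 0.61 ± 0.070 with siRNA-2 (edgeR adjusted p = 1.93e-08). The direct difference between the siRNAs was 0.87 ± 0.073 (edgeR adjusted p = 1.97e-11), 1.83-fold.

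The 2 regulatory subunits that direct phosphatase to eIF2 moved apart with siRNA-1. PPP1R15A (ENSG00000087074), the stress-inducible subunit, stood at 238, 222 and 240 CPM in control and 284, 289 and 294 CPM with siRNA-1, a log2 fold change of 0.31 ± 0.044 (edgeR adjusted p = 5.85e-07). With siRNA-2 it stood at 237, 246 and 262 CPM, overlapping the control (0.096 ± 0.054, edgeR adjusted p = 0.126). PPP1R15B (ENSG00000158615), the constitutive subunit, whose promoter carries the CARE shown above, stood at 169, 166 and 179 CPM in control, 121, 127 and 114 CPM with siRNA-1 and 151, 141 and 154 CPM with siRNA-2. All 6 knockdown libraries lay below the control. PPP1R15B changed by -0.50 ± 0.048 (log2, edgeR adjusted p = 5.14e-10) with siRNA-1 and by -0.20 ± 0.055 (edgeR adjusted p = 0.00269) with siRNA-2.

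ASNS (ENSG00000070669), whose promoter holds a CARE, was measured on 32 to 68 reads a library. It stood at 3.39, 3.65 and 3.77 CPM in control, 2.01, 2.92 and 3.08 CPM with siRNA-1 and 1.60, 2.04 and 3.27 CPM with siRNA-2. Every knockdown library lay below every control library, but the knockdown libraries spread widely. On the log2 scale the change was -0.41 ± 0.20 with siRNA-1 (edgeR adjusted p = 0.0868) and -0.67 ± 0.24 with siRNA-2 (edgeR adjusted p = 0.0175). The siRNA-2 call was lost without siRNA-2 library 1 (edgeR adjusted p = 0.143) or 2 (edgeR adjusted p = 0.0536).

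Of the remaining members of the axis, CEBPG, the C/EBP partner of ATF4, was lower with siRNA-1 (log2 fold change -0.46 ± 0.051) and siRNA-2 (-0.21 ± 0.060), and so was the mTORC1 inhibitor DDIT4 (-0.175 ± 0.055 and -0.34 ± 0.063). The DDIT4 call with siRNA-1 was lost without siRNA-1 library 1 (edgeR adjusted p = 0.061). VEGFA, which encodes an angiogenic growth factor, was lower with siRNA-1 (-0.29 ± 0.055) and gave no call with siRNA-2 (-0.032 ± 0.064). CEBPB, another C/EBP factor, was likewise lower with siRNA-1 (-0.18 ± 0.051) and gave no call with siRNA-2 (0.032 ± 0.063). The CEBPB call was lost without control library 1 (edgeR adjusted p = 0.0572). NUPR1, on 4 to 16 reads a library, gave no call in any comparison.

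**Figure D3:**
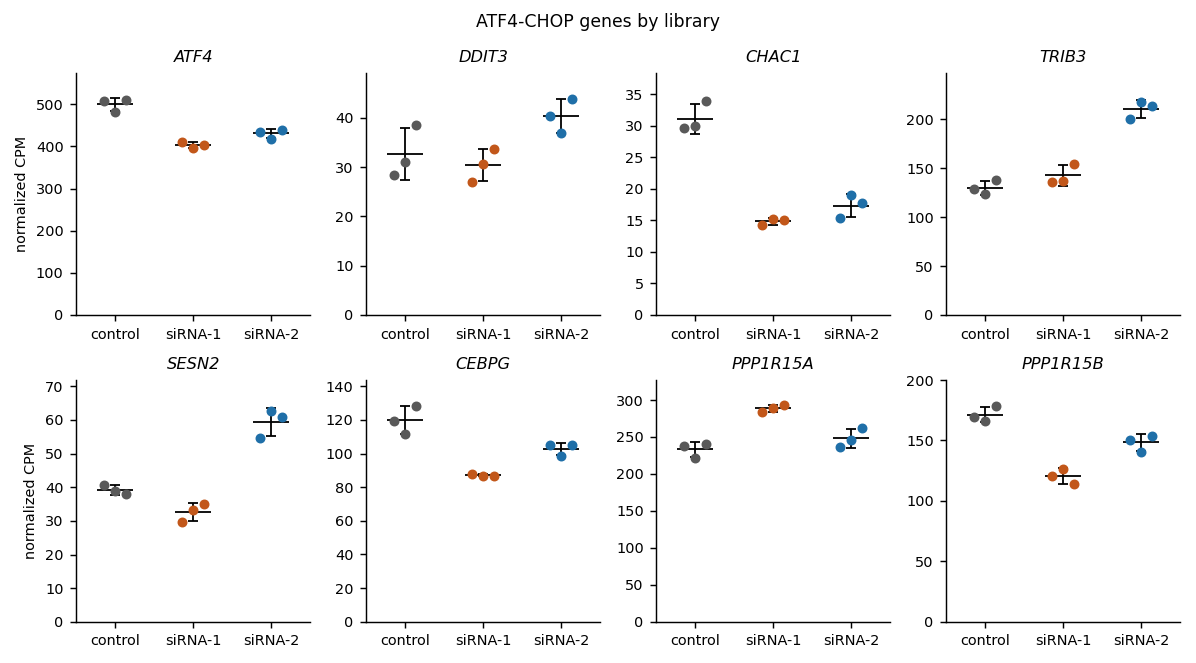
Normalized CPM of 8 ATF4-CHOP genes in each of the 9 libraries (points), with the mean and SD of each group (n = 3). CHAC1 is at 29.6 to 33.8 CPM in control and 14.2 to 19.0 CPM in the knockdown libraries, and TRIB3 and SESN2 are highest in the siRNA-2 libraries.

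Of the 4 sensor genes, siRNA-1 left 3 lower and none higher, and siRNA-2 left 2 higher and none lower. Among all tested genes 28.3% were lower with siRNA-1 and 27.7% higher with siRNA-2. XBP1 (ENSG00000100219), the IRE1 substrate and transcription factor that carries the ERSE shown above, stood at 322, 322 and 321 CPM in control, 220, 226 and 239 CPM with siRNA-1 and 338, 341 and 362 CPM with siRNA-2. The 3 groups did not overlap. The log2 fold change with siRNA-1 was -0.49 ± 0.044 (edgeR adjusted p = 1.05e-10), 1.40-fold lower. With siRNA-2 it was 0.12 ± 0.050 (edgeR adjusted p = 0.0468). This call did not hold: the edgeR adjusted p was 0.0503 with another scaling (relative log expression), 0.102 without a filter on low counts, and 0.0537 to 0.147 on leaving out any of the 6 libraries.

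EIF2AK3 (ENSG00000172071), which encodes PERK, stood at 27.1, 30.2 and 28.8 CPM in control, 21.5, 26.6 and 25.1 CPM with siRNA-1 and 34.3, 32.7 and 40.8 CPM with siRNA-2. The groups did not overlap, siRNA-1 being lowest and siRNA-2 highest. The change on the log2 scale was -0.22 ± 0.080 with siRNA-1 (edgeR adjusted p = 0.0179) and 0.33 ± 0.084 with siRNA-2 (edgeR adjusted p = 0.00145). The siRNA-1 call was lost without control library 2 (edgeR adjusted p = 0.0744) or siRNA-1 library 1 (edgeR adjusted p = 0.14).

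ERN1 (ENSG00000178607), which encodes IRE1, stood at 20.5, 22.0 and 23.5 CPM in control, 16.4, 17.7 and 16.9 CPM with siRNA-1 and 20.6, 21.5 and 20.8 CPM with siRNA-2. The siRNA-1 libraries were lowest, and siRNA-2 overlapped the control. ERN1 changed on the log2 scale by -0.37 ± 0.084 (edgeR adjusted p = 0.000461) with siRNA-1 and -0.063 ± 0.089 (edgeR adjusted p = 0.566) with siRNA-2. ATF6 (ENSG00000118217) overlapped between each siRNA and control, at 62.0, 65.7 and 67.6 CPM in control, 58.5, 63.5 and 63.2 CPM with siRNA-1 and 64.9, 63.8 and 69.4 CPM with siRNA-2. Its log2 fold change was -0.070 ± 0.055 (edgeR adjusted p = 0.292) and 0.028 ± 0.063 (edgeR adjusted p = 0.724).

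Among the 17 ER folding genes, siRNA-1 left 5 higher and 6 lower with a median log2 fold change of -0.049, and siRNA-2 left 8 higher and 5 lower with a median of 0.088. The siRNA-1 shares, 29.4% higher and 35.3% lower, were near the 26.5% and 28.3% of all tested genes. The siRNA-2 shares were 47.1% higher and 29.4% lower, beside 27.7% and 29.0%. HSPA5 (ENSG00000044574) encodes BiP, the ER HSP70 that binds unfolded chains and the luminal domains of the sensors. It stood at 2100, 2095 and 2305 CPM in control, 1648, 1835 and 1851 CPM with siRNA-1 and 2506, 2334 and 2749 CPM with siRNA-2. The groups did not overlap. HSPA5 was lower with siRNA-1 (log2 fold change -0.28 ± 0.048, edgeR adjusted p = 1.11e-05) and higher with siRNA-2 (0.23 ± 0.053, edgeR adjusted p = 0.000476).

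DNAJB9 (ENSG00000128590), the BiP co-chaperone ERdj4, showed the widest separation of all members between the siRNAs. It stood at 96.4, 96.6 and 106 CPM in control, 75.7, 82.2 and 83.5 CPM with siRNA-1 and 165, 154 and 191 CPM with siRNA-2. No groups overlapped. DNAJB9 changed on the log2 scale by -0.30 ± 0.053 with siRNA-1 (edgeR adjusted p = 1.78e-05) and 0.78 ± 0.066 with siRNA-2 (edgeR adjusted p = 3.63e-11), and 1.09 ± 0.065 between the siRNAs (edgeR adjusted p = 8.96e-15), 2.13-fold.

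HYOU1 (ENSG00000149428), the large ER HSP70 that acts as exchange factor for BiP and carries the UPRE shown above, followed the same order. It stood at 462, 474 and 448 CPM in control, 349, 406 and 418 CPM with siRNA-1 and 605, 627 and 724 CPM with siRNA-2, with no overlap. The fitted log2 fold change was -0.23 ± 0.051 with siRNA-1 (edgeR adjusted p = 0.000289) and 0.51 ± 0.056 with siRNA-2 (edgeR adjusted p = 8.74e-09).

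CRELD2 (ENSG00000184164), an ER protein induced by ER stress, rose with both siRNAs. It stood at 29.0, 27.8 and 27.2 CPM in control, 37.1, 34.7 and 34.8 CPM with siRNA-1 and 41.6, 47.5 and 41.1 CPM with siRNA-2. All knockdown libraries lay above all control libraries. It changed on the log2 scale by 0.35 ± 0.067 (edgeR adjusted p = 7.34e-05) and 0.64 ± 0.078 (edgeR adjusted p = 4.38e-08). P4HB (0.21 ± 0.042 and 0.35 ± 0.047), the lectin chaperone CALR (0.21 ± 0.041 and 0.23 ± 0.047) and the co-chaperone DNAJC3 (0.15 ± 0.052 and 0.25 ± 0.064) were also called higher with siRNA-1 and with siRNA-2. The DNAJC3 call with siRNA-1 was lost without control library 1 or 2 or siRNA-1 library 2, with edgeR adjusted p between 0.0625 and 0.0935.

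ERO1A (ENSG00000197930), the oxidase that recharges disulfide isomerases, went the other way from HSPA5, DNAJB9 and HYOU1. It stood at 92.9, 97.5 and 103 CPM in control, 116, 123 and 125 CPM with siRNA-1 and 70.4, 66.7 and 81.4 CPM with siRNA-2. The groups did not overlap, siRNA-1 being highest and siRNA-2 lowest. On the log2 scale the change was 0.32 ± 0.050 with siRNA-1 (edgeR adjusted p = 3.9e-06) and -0.42 ± 0.067 with siRNA-2 (edgeR adjusted p = 4.55e-06).

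Of the other ER folding genes, MANF, a secreted ER stress protein, was higher with siRNA-2 (0.34 ± 0.063, edgeR adjusted p = 3.62e-05) and gave no call with siRNA-1 (0.10 ± 0.047). HSP90B1 was lower with siRNA-1 (-0.17 ± 0.045, edgeR adjusted p = 0.00192) and DNAJB11, another BiP co-chaperone, lower with siRNA-2 (-0.28 ± 0.061, edgeR adjusted p = 0.000253). The disulfide isomerase PDIA3 gave no call with siRNA-1 (0.034 ± 0.045, edgeR adjusted p = 0.534) and was called lower with siRNA-2 (-0.13 ± 0.050). The disulfide isomerase PDIA4 (-0.10 ± 0.042 and -0.16 ± 0.048) and the lectin chaperone CANX (-0.13 ± 0.042 and -0.13 ± 0.052) were called lower with both siRNAs. The calls for PDIA4 and CANX with siRNA-1 (edgeR adjusted p = 0.0428 and 0.0115) and for PDIA3 and CANX with siRNA-2 (edgeR adjusted p = 0.0315 and 0.0341) were each lost on leaving out at least 1 library, with edgeR adjusted p reaching 0.141, 0.064, 0.186 and 0.164. The PDIA4 call with siRNA-1 did not hold: it was lost with relative log expression scaling (edgeR adjusted p = 0.055) and with a minimum count of 30 (edgeR adjusted p = 0.0874). It was also lost on leaving out any of the 6 libraries. The PDIA4 call with siRNA-2 (edgeR adjusted p = 0.00554) was made in every alternative. The siRNA-2 calls for PDIA3 and CANX were also lost with a minimum count of 30 (edgeR adjusted p = 0.0531 and 0.0558). PDIA6, SDF2L1 and ERO1B gave no call with either siRNA. In alternatives with siRNA-1, SDF2L1 was called lower without control library 3 (-0.17, edgeR adjusted p = 0.0161). MANF was called higher with siRNA-1 at a minimum count of 30 (0.12, edgeR adjusted p = 0.0316).

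Of the 7 ER degradation genes, siRNA-1 left 6 lower and none higher (median log2 fold change -0.39), and siRNA-2 left 2 higher and 3 lower (median 0.036). Over all tested genes 28.3% were lower with siRNA-1, and 27.7% were higher and 29.0% lower with siRNA-2. EDEM1 (ENSG00000134109), a mannose-trimming factor that marks misfolded glycoproteins for disposal, had the largest fall of all members with siRNA-2. It stood at 42.2, 43.7 and 43.7 CPM in control, 27.4, 33.6 and 33.6 CPM with siRNA-1 and 19.6, 18.5 and 20.9 CPM with siRNA-2. The groups did not overlap and fell in that order. The change on the log2 scale was -0.44 ± 0.071 (edgeR adjusted p = 4.63e-06) with siRNA-1 and -1.13 ± 0.079 (edgeR adjusted p = 5.98e-13) with siRNA-2, 2.19-fold lower.

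SEL1L (ENSG00000071537) and DERL1 (ENSG00000136986), which belong to the membrane complex that moves misfolded proteins to the cytosol, were lower with both siRNAs. SEL1L stood at 84.4, 83.3 and 83.8 CPM in control, 59.4, 63.6 and 60.6 CPM with siRNA-1 and 52.3, 51.0 and 62.0 CPM with siRNA-2 (log2 fold change -0.45 ± 0.051, edgeR adjusted p = 1.41e-08, and -0.60 ± 0.068, edgeR adjusted p = 1.2e-08). DERL1 stood at 209, 199 and 215 CPM in control, 125, 129 and 130 CPM with siRNA-1 and 139, 137 and 137 CPM with siRNA-2 (-0.69 ± 0.046, edgeR adjusted p = 1.83e-13, and -0.59 ± 0.053, edgeR adjusted p = 1.53e-10). For both genes all 6 knockdown libraries lay below all control libraries.

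HERPUD1 (ENSG00000051108), a membrane scaffold of the same complex, and SYVN1, its ubiquitin ligase, behaved differently from SEL1L and DERL1. HERPUD1 stood at 81.5, 75.7 and 89.1 CPM in control, 59.5, 62.4 and 65.8 CPM with siRNA-1 and 95.0, 94.1 and 101 CPM with siRNA-2, with no overlap between groups. Its log2 fold change was -0.39 ± 0.058 with siRNA-1 (edgeR adjusted p = 1.9e-06) and 0.24 ± 0.063 with siRNA-2 (edgeR adjusted p = 0.00165). SYVN1 was higher with siRNA-2 (0.27 ± 0.063, edgeR adjusted p = 0.000603) and gave no call with siRNA-1 (-0.066 ± 0.051, edgeR adjusted p = 0.283). EDEM2 and DERL2 were called lower with siRNA-1 by small amounts (-0.17 ± 0.060 and -0.16 ± 0.053), EDEM2 losing the call in 4 of the 6 fits that left out a library (edgeR adjusted p 0.0505 to 0.0817) and DERL2 without siRNA-1 library 3 (edgeR adjusted p = 0.0972). Neither was called with siRNA-2, except that EDEM2 was called higher at a minimum count of 30 (0.16, edgeR adjusted p = 0.0382).

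**Figure D4:**
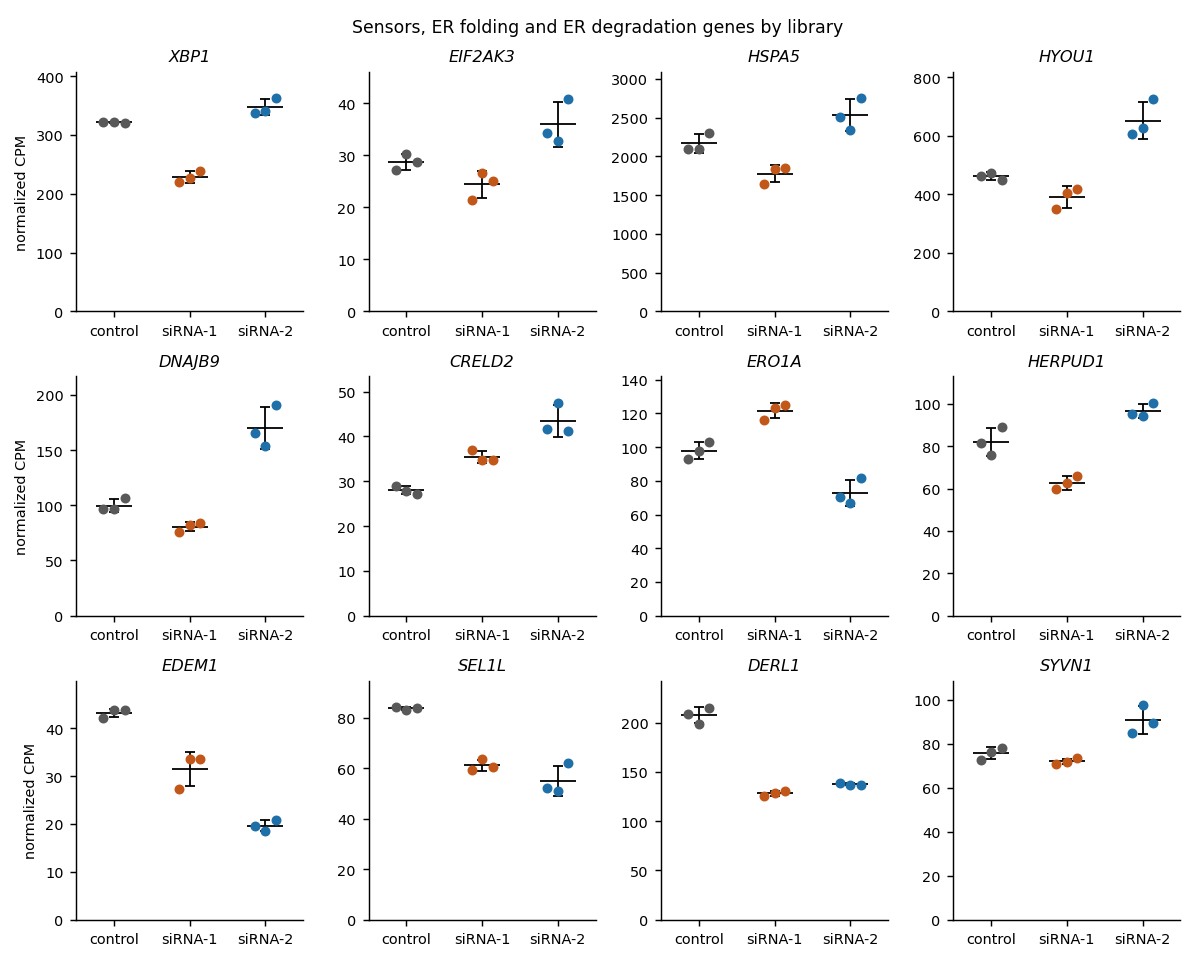
Normalized CPM of 12 sensor, ER folding and ER degradation genes in each of the 9 libraries (points), with the mean and SD of each group (n = 3). DNAJB9, HYOU1 and HSPA5 are lowest with siRNA-1 and highest with siRNA-2, ERO1A has the opposite order, and EDEM1 falls from 43.2 to 31.5 and 19.6 CPM on average.

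Set beside each other, the ATF4-CHOP genes had a lower median than the ER folding genes with either siRNA. The median of the ATF4-CHOP genes minus that of the ER folding genes was -0.23 (log2) with siRNA-1 and -0.12 with siRNA-2, and the direct comparison of siRNA-2 with siRNA-1 gave 0.11. No test over the lists was made, since their genes are not replicates. Each of these medians is the value of a single gene. With siRNA-1 these genes were NUPR1 (-0.28 ± 0.50, on 4 to 16 reads a library) and DNAJB11 (-0.049 ± 0.047). With siRNA-2 they were VEGFA (-0.032 ± 0.064) and SDF2L1 (0.088 ± 0.080). None of these values was called, and those of NUPR1, VEGFA and SDF2L1 changed sign on leaving out a library. The siRNA-1 difference was -0.15 without siRNA-1 library 1. The siRNA-2 difference was -0.27 with a minimum count of 30, which removes low genes from the lists, and -0.21 without siRNA-2 library 3. By library, the median of the ATF4-CHOP genes relative to the control mean was -0.33, -0.26 and -0.18 with siRNA-1 and -0.10, -0.16 and 0.022 with siRNA-2, and that of the ER folding genes was -0.013, -0.089 and -0.041 with siRNA-1 and 0.023, 0.11 and 0.15 with siRNA-2. The ER degradation genes had the lowest median with siRNA-1, at -0.46, -0.36 and -0.31 by library. Their median with siRNA-2 was -0.028, -0.052 and 0.14, but the genes split. EDEM1 (-1.13), SEL1L (-0.60) and DERL1 (-0.59) were called lower with siRNA-2, and HERPUD1 (0.24) and SYVN1 (0.27) higher.

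Tested directly, 7 of 13 ATF4-CHOP genes, 3 of 4 sensor genes, 7 of 17 ER folding genes and 4 of 7 ER degradation genes were higher with siRNA-2 than with siRNA-1, and 2, 0, 3 and 1 were lower. In this comparison 23.1% of all tested genes were higher and 22.4% lower. Each list exceeded the share higher. The counts lower were too small to be set apart from the share lower. The median difference was 0.25, 0.44, 0.15 and 0.21 in these lists. The highest values among the called genes were those of DNAJB9, SESN2, HYOU1 (0.75 ± 0.062, edgeR adjusted p = 1.5e-11), HERPUD1 (0.64 ± 0.060, edgeR adjusted p = 2.49e-10) and XBP1 (0.62 ± 0.051, edgeR adjusted p = 1.45e-11), followed by TRIB3 (0.58 ± 0.056), EIF2AK3 (0.56 ± 0.087), HSPA5 (0.52 ± 0.054) and DDIT3 (0.42 ± 0.080). The lowest were ERO1A (-0.73 ± 0.064, edgeR adjusted p = 5.86e-11) and EDEM1 (-0.67 ± 0.088, edgeR adjusted p = 1.72e-07). Genes lower with both siRNAs gave no direct call in the cases of ATF4 (0.11 ± 0.047, edgeR adjusted p = 0.056), CHAC1 (0.23 ± 0.097, edgeR adjusted p = 0.0522), SEL1L (-0.14 ± 0.069, edgeR adjusted p = 0.0982) and DERL1 (0.12 ± 0.052, edgeR adjusted p = 0.0696). Some of these were called in alternatives: ATF4 with DESeq2 (DESeq2 adjusted p = 0.0488) and without siRNA-2 library 2 (edgeR adjusted p = 0.0431), CHAC1 without siRNA-2 library 1 (edgeR adjusted p = 0.0154), and SEL1L without siRNA-2 library 3, at -0.24 (edgeR adjusted p = 0.00222). The direct call for DDIT4 (-0.16 ± 0.063, edgeR adjusted p = 0.0423) was lost with DESeq2 (DESeq2 adjusted p = 0.0534), without a filter on low counts and in 4 of the 6 fits that left out a library, with edgeR adjusted p reaching 0.173. The direct calls for DERL2 (without siRNA-1 library 3 or siRNA-2 library 3, at 0.17 and 0.13, edgeR adjusted p = 0.0829 and 0.0872), P4HB (without siRNA-1 library 1 or siRNA-2 library 2, edgeR adjusted p = 0.0501 and 0.0573) and PDIA3 (without siRNA-1 library 2, edgeR adjusted p = 0.0548) were also lost.

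**Figure D5:**
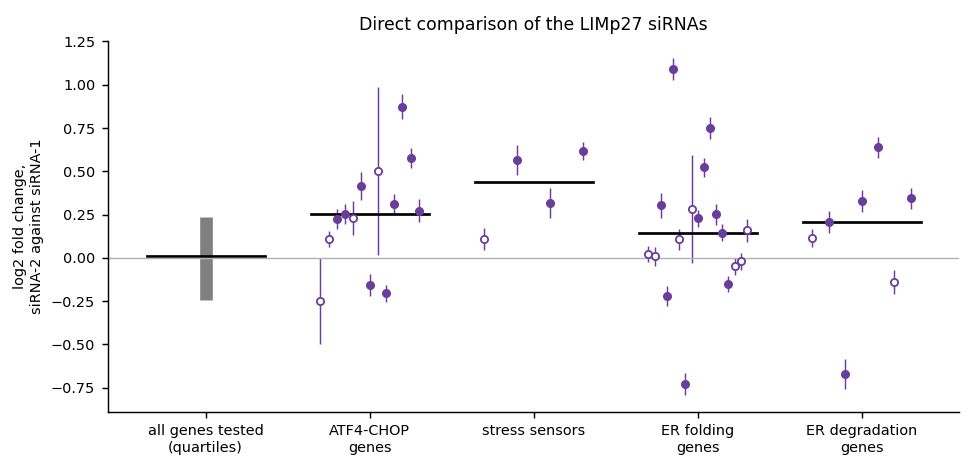
Log2 fold change of LIMp27 siRNA-2 against LIMp27 siRNA-1 for each member (points with 1 standard error; open symbols not called), with the median of each list as a black line and the quartiles of all 14415 tested genes as a grey bar. List medians run from 0.15 (ER folding genes) to 0.44 (sensors), where the median of all genes is 0.012.

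Lists of further genes of these pathways were counted in the same way, and the genes named from them are those of lowest adjusted p. Of 32 further ATF4 target genes tested (33 listed by name), siRNA-1 left 2 higher and 23 lower (median log2 fold change -0.36) and siRNA-2 left 6 higher and 23 lower (median -0.26), with 13 higher and 5 lower in the direct comparison. Among all tested genes 26.5% were higher and 28.3% lower with siRNA-1, and 27.7% and 29.0% with siRNA-2. The direct comparison had 23.1% higher and 22.4% lower. PSAT1, an enzyme of serine synthesis, stood at 243, 234 and 232 CPM in control, 87.0, 84.5 and 88.1 CPM with siRNA-1 and 160, 157 and 152 CPM with siRNA-2. It fell by 1.44 ± 0.046 (log2, edgeR adjusted p = 9.71e-21) with siRNA-1 and by 0.59 ± 0.052 (edgeR adjusted p = 1.05e-10) with siRNA-2. The stress cytokine GDF15 was lower with siRNA-1 (-1.31 ± 0.050, edgeR adjusted p = 8.68e-19) and with siRNA-2 (-0.64 ± 0.063, edgeR adjusted p = 7.61e-10). The glycyl-tRNA synthetase gene GARS1 (listed as GARS; -0.58 ± 0.048 and -0.99 ± 0.056) and the mitochondrial folate enzyme gene MTHFD2 (-0.46 ± 0.042 and -0.90 ± 0.060) were lower with siRNA-1 and lower still with siRNA-2, by -0.40 ± 0.054 and -0.43 ± 0.058 in the direct comparison (edgeR adjusted p = 3.34e-07 and 3.39e-07). ATF3, a stress-induced transcription factor, went in opposite directions like SESN2: it stood at 67.0, 59.7 and 74.6 CPM in control, 44.0, 46.7 and 47.0 CPM with siRNA-1 and 85.4, 84.0 and 99.9 CPM with siRNA-2 (-0.54 ± 0.065, edgeR adjusted p = 3.62e-08, and 0.43 ± 0.073, edgeR adjusted p = 1.37e-05).

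Of 47 genes of ER import, glycosylation and further folding, siRNA-1 left 12 higher and 26 lower (median -0.15) and siRNA-2 left 18 higher and 14 lower (median 0.0054), with 24 higher and 7 lower in the direct comparison. The shares were 25.5% higher and 55.3% lower with siRNA-1, beside 26.5% and 28.3% of all tested genes. With siRNA-2 they were 38.3% and 29.8%, beside 27.7% and 29.0%. The direct shares were 51.1% and 14.9%, beside 23.1% and 22.4%. KDELR2, a receptor that returns escaped ER chaperones, stood at 251, 253 and 262 CPM in control, 246, 244 and 240 CPM with siRNA-1 and 109, 99.6 and 101 CPM with siRNA-2. Its log2 fold change was -0.065 ± 0.042 with siRNA-1 (edgeR adjusted p = 0.195) and -1.29 ± 0.055 with siRNA-2 (edgeR adjusted p = 7.1e-18). The signal peptidase subunit SPCS3 (-0.43 ± 0.045 and -1.04 ± 0.057) and the translocon subunit SEC61A1 (-0.13 ± 0.043 and -0.74 ± 0.048) were lower with both siRNAs and more so with siRNA-2, by -0.61 ± 0.057 and -0.61 ± 0.049 in the direct comparison. The ER export receptor LMAN1 was lower (-0.68 ± 0.044 and -0.97 ± 0.056) and the ER peroxiredoxin PRDX4 higher with both (0.85 ± 0.055 and 0.86 ± 0.064). Of 19 further ER degradation genes tested (20 listed by name), 7 were higher and 6 lower with siRNA-1, 7 higher and 6 lower with siRNA-2, and 6 higher and 7 lower in the direct comparison. The shares with siRNA-1, 36.8% higher and 31.6% lower, stood beside 26.5% and 28.3% of all tested genes. The same shares with siRNA-2 stood beside 27.7% and 29.0%. In the direct comparison 31.6% higher and 36.8% lower stood beside 23.1% and 22.4%. EDEM3, a mannosidase of the EDEM family, was lower with siRNA-1 (-0.26 ± 0.067) and siRNA-2 (-0.82 ± 0.081), and UBE2J1, a ubiquitin-conjugating enzyme of the ER membrane, was lower likewise (-0.29 ± 0.055 and -0.61 ± 0.068). UBXN4 was higher with both (0.34 ± 0.044 and 0.36 ± 0.054), UFD1 higher with siRNA-1 (0.34 ± 0.044), and SELENOS higher with siRNA-2 (0.23 ± 0.055).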

How the data were processed

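RNA-seq of 9 WiDr libraries was analysed. Per the labels, total RNA was extracted with the ISOLATE II kit and made into strand-specific libraries. The submitters' processing notes name CASAVA (no version) and GRCh38/hg38. The aligner, the counting program and the handling of reads shared with copies (ATF4, HSP90B1, PDIA3 and XBP1 have annotated pseudogenes) are not given in the sources used here. The authors deposited, for each LIMp27 siRNA, raw read counts per gene and FPKM (counts scaled by gene length and library size), with normalized values and a fold change and p-value of their own that were not used. Genes listed in 1 table only (2418) were given 0 in the other siRNA's libraries.

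Counts were tested with edgeR 4.0.16 (quasi-likelihood, TMM scaling, filterByExpr with a minimum count of 10) in R 4.3.3, on the 6 libraries of each comparison, with Benjamini-Hochberg adjustment over all tested genes and a threshold of 0.05. The standard error of a log2 fold change was taken as its size over the square root of its F statistic. Printed CPM share 1 TMM scaling over all 9 libraries, and FPKM served only to compare levels between genes. The fit was tested on simulated data. No replicate pair agreed within sampling noise, so each counted as 1 sample; the study calls them biological repeats or experimental repeats, so p-values measure the spread between these libraries, which may be technical. Alternatives were relative log expression scaling, DESeq2 1.42.0, no filter, a minimum count of 30, a replicate block, all 9 libraries in 1 fit, and leaving out each library. Members called with a log2 fold change of at least 0.5 in size in any comparison were described in full, together with ATF4, DDIT3, XBP1, ATF6, EIF2AK3, ERN1 and HSPA5, and up to 2 called genes per further list and comparison, those of lowest adjusted p, were named, except 1 that is not reported here. The members and lists were chosen with earlier results of these data known. Counting error weighs most on the lowest genes.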

Additional observations from a re-analysis of the deposited data

Results flagged for a closer look

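For 27 members the effect against control differed between the siRNAs, by the direct edgeR comparison of LIMp27 siRNA-2 with LIMp27 siRNA-1 (adjusted p under 0.05). Of these, 21 were higher and 6 lower with siRNA-2. Among all 14415 tested genes, 23.1% were called higher and 22.4% lower in this comparison, so differing between the siRNAs is not particular to these members. The values below are log2 differences. In the ATF4-CHOP axis, these were DDIT3 (0.4152), TRIB3 (0.5762), SESN2 (0.8728), CEBPB (0.2251), CEBPG (0.2544), PPP1R15B (0.314) and VEGFA (0.2735), higher with siRNA-2, and DDIT4 (-0.1568) and PPP1R15A (-0.2053), lower with siRNA-2. The sensor genes EIF2AK3 (0.5647), ERN1 (0.3157) and XBP1 (0.6167) were higher. Among ER folding genes, HSPA5 (0.5227), HSP90B1 (0.2286), DNAJB9 (1.092), P4HB (0.1466), MANF (0.2521), CRELD2 (0.3053) and HYOU1 (0.7513) were higher, and DNAJB11 (-0.2211), PDIA3 (-0.1501) and ERO1A (-0.7272) lower. Among ER degradation genes, HERPUD1 (0.6377), EDEM2 (0.326), SYVN1 (0.3448) and DERL2 (0.2054) were higher and EDEM1 (-0.6725) lower. The calls for DDIT4, DERL2, P4HB and PDIA3 were lost in at least 1 alternative.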

How the results depend on the processing

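Over 1469 values of members under alternatives, 1385 kept their direction and side of the threshold, 55 lost the call, 11 gained it and 18 changed sign. No value that changed sign was called in either fit; the cause was not tested. With all 9 libraries in 1 fit, CANX between the siRNAs was -0.0056. On leaving out single libraries, the log2 fold change with siRNA-1 ran from -0.18 to 0.039 for DDIT3, -1.03 to 0.037 for NUPR1, -0.00043 to 0.080 for PDIA3 and -0.17 to 0.018 for SDF2L1. With siRNA-2 it ran from -0.011 to 0.049 for ATF6, -0.040 to 0.093 for CEBPB, -0.036 to 0.067 for DERL2, -0.014 to 0.092 for HSP90B1, -0.047 to 0.42 for NUPR1, -0.028 to 0.16 for SDF2L1 and -0.12 to 0.015 for VEGFA. Between the siRNAs it ran from -0.073 to 0.048 for CANX and -0.050 to 0.0064 for PDIA6.

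Leaving out single libraries gave 1 to 2 ATF4-CHOP genes higher with siRNA-1, 3 to 5 ER folding genes lower with siRNA-2 and 1 to 2 ATF4-CHOP genes lower between the siRNAs. The difference of the medians of the ATF4-CHOP and ER folding genes then ran from -0.30 to -0.15 with siRNA-1, from -0.21 to -0.12 with siRNA-2 and from 0.079 to 0.16 between the siRNAs. With a minimum count of 30, 3 ER folding genes were lower with siRNA-2 and that difference was -0.27. With DESeq2, and without a filter on low counts, 1 ATF4-CHOP gene (PPP1R15A) was lower between the siRNAs. The other counts stayed within 1.5 times those reported, and no alternative moved the median of the genes it shared with the reported fit by over 0.02. Without a filter on low counts, which adds low genes, the median over all genes tested with siRNA-2 was 0.039.

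Replicate numbers did not pair the libraries: the deviations of 9 same-numbered pairs correlated at -0.208 to 0.203, with 2 over 0.1, and a library correlated best with its own number in 5 of 18 cases. A replicate block made the direct call for CHAC1 (0.24, edgeR adjusted p = 0.0454) and changed no other call among the members. Depth bears most on NUPR1, ERO1B and ASNS, on 4 to 68 reads a library.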

Other observations

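Of 13 genes for eIF2 kinases, eIF2 and its exchange factor eIF2B, 2 were higher and 8 lower with siRNA-1 (median log2 fold change -0.21), 1 higher and 7 lower with siRNA-2 (median -0.18), and 3 higher and 3 lower in the direct comparison. The direct shares, 23.1% each, were near the 23.1% and 22.4% of all tested genes. With siRNA-1 26.5% of all tested genes were higher and 28.3% lower, and with siRNA-2 27.7% and 29.0%. EIF2S1, the subunit that is phosphorylated, stood at 159, 157 and 163 CPM in control, 104, 108 and 105 CPM with siRNA-1 and 97.9, 85.5 and 99.9 CPM with siRNA-2. Its log2 fold change was -0.59 ± 0.045 (edgeR adjusted p = 5.13e-12) and -0.75 ± 0.060 (edgeR adjusted p = 1.14e-11). EIF2S2, the beta subunit, was lower likewise (-0.50 ± 0.041 and -0.58 ± 0.051). EIF2B1, a regulatory subunit of eIF2B, fell more with siRNA-2 (-0.89 ± 0.070) than with siRNA-1 (-0.29 ± 0.057), by -0.59 ± 0.069 in the direct comparison (edgeR adjusted p = 2.53e-08). DELE1, which relays mitochondrial stress to an eIF2 kinase, was lower with siRNA-1 (-0.21 ± 0.058) and higher with siRNA-2 than with siRNA-1 (0.21 ± 0.062).

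Of 9 genes for the processing of unfolded protein response signals and the output of CHOP, 3 were higher and 5 lower with siRNA-1, 1 higher and 3 lower with siRNA-2, and 3 higher and 2 lower in the direct comparison. The shares were 33.3% and 55.6% with siRNA-1, beside 26.5% and 28.3% of all tested genes. With siRNA-2 they were 11.1% and 33.3%, beside 27.7% and 29.0%. The direct shares were 33.3% and 22.2%, beside 23.1% and 22.4%. ATF6B, the paralogue of ATF6, was called between the siRNAs, where ATF6 gave no direct call (0.11 ± 0.062, edgeR adjusted p = 0.155). ATF6B stood at 63.5, 65.2 and 65.6 CPM in control, 97.2, 102 and 101 CPM with siRNA-1 and 50.2, 44.6 and 46.5 CPM with siRNA-2. No groups overlapped, and the direct difference was -1.07 ± 0.062 (log2, edgeR adjusted p = 4.55e-15). MBTPS1, the protease that makes the first cut in ATF6, was higher with both siRNAs (0.22 ± 0.054 and 0.60 ± 0.063). RTCB, the ligase that joins the spliced XBP1 exons, was lower with both (-0.39 ± 0.052 and -0.41 ± 0.058). TMBIM6, an ER membrane protein that restrains IRE1, was lower with siRNA-1 (-0.36 ± 0.041) and gave no call with siRNA-2 (0.051 ± 0.047).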
